A study of Mus musculus with 2 samples.

Results

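Downstream-only regions are stretches of methylated mouse liver DNA that lie beyond the 3′ end of at least 1 RefSeq transcript, at up to 10 kb, and that touch, contain or precede no listed transcript. They were taken from the longer of the 2 region lists deposited for each mouse, with 1 entry per region, as the regions for which every listed relation to a transcript was downstream. The Pemt-/- list held 3861 of them among 97063 regions and the Pemt+/+ list 5321 among 131279 regions. Pemt encodes phosphatidylethanolamine N-methyltransferase, which makes phosphatidylcholine in the liver with S-adenosylmethionine as methyl donor. Each list came from the liver of a single mouse, 1 knockout (Pemt-/-) and 1 wild type (Pemt+/+), and both were given high-fat, high-sucrose (HFHS) chow from 5 weeks of age until the liver was taken at 25 weeks. The Methods describe male mice and shorter feeding just before the capture step, and the age given here is that of the labels. The strain is not given in the sources used here, and methylated regions cannot show whether the knockout lacks Pemt. Methylated DNA was captured with a methyl-CpG-binding protein and sequenced. With 1 library per genotype there was no replicate and no test, and every comparison below is of these 2 libraries. Intervals in parentheses are 95% intervals of counting error.

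In mammals most CpG dinucleotides carry a methyl group, which DNMT3A and DNMT3B place and DNMT1 copies at cell division. Bodies of expressed genes are usually methylated, whereas CpG islands at promoters are usually free of methylation, so methylated DNA thins out towards many 5′ ends. Sequence beyond the 3′ end holds polyadenylation and termination signals, and also enhancers and the flanks of the next gene. A methyl-CpG capture reports methylated stretches with many CpGs and says little about CpG-poor DNA. A region with few reads (tags) in bulk liver can be methylated in few cells or lightly methylated in many, and these cannot be told apart. The lists hold no expression values, so liver markers could not be checked in them. Base sequences of the regions are not printed, since the lists use the mouse build mm9 and no genome of that build was used here.

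Downstream-only regions were 3.98% of the Pemt-/- regions (3.86 to 4.10%) and 4.05% of the Pemt+/+ regions (3.95 to 4.16%). Regions only upstream of transcripts were about as many, 3868 (3.99%) and 5387 (4.10%). The downstream-only regions held 60620 of 1582080 listed tags in Pemt-/- and 111000 of 2847831 in Pemt+/+, which were 3.83% and 3.90%. They covered 1744.5 kb and 2422.61 kb. Downstream-only regions were thus a small and nearly equal part of both lists, by number, tags and length. The demand that every relation be downstream removed many regions near 3′ ends. A downstream relation was listed for 7046 regions in Pemt-/- and 9841 in Pemt+/+, and of these 3185 and 4520 also had another relation. Most often the region also lay inside another transcript, which held for 1901 and 2737 regions with these 2 relations alone. Another 776 and 1055 lay downstream of one transcript and upstream of another.

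The distance of a region is that of its nearer edge from the nearest 3′ end. In Pemt-/-, 800 regions lay at 0 to 2 kb, 1162 at 2 to 5 kb and 1899 at 5 to 10 kb. These were 20.7% (19.5 to 22.0%), 30.1% (28.7 to 31.6%) and 49.2% (47.6 to 50.8%) of the downstream-only regions. In Pemt+/+ the same bins held 1123, 1600 and 2598 regions, which were 21.1% (20.0 to 22.2%), 30.1% (28.9 to 31.3%) and 48.8% (47.5 to 50.2%). The shares of each bin therefore differed between the mice by less than their intervals. Per kb of bin width the Pemt-/- numbers were 400, 387 and 379.8, and the Pemt+/+ numbers 561.5, 533 and 519.6, so that the raw counts were slightly higher close to the 3′ end. Upstream-only regions went the other way, with 354.5, 400 and 391.8 per kb in Pemt-/- and 501.5, 548 and 548 in Pemt+/+.

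A kb close to a gene is more often free of other transcripts than a kb farther away. The numbers were therefore also divided by the sequence in which such a region could lie, within the flanks that could be placed. Transcript ends were rebuilt from the positions and distances in the lists, which gave 8977 3′ ends and 8535 5′ ends. The 4900 3′ ends that each mouse's list gave on its own had the same position in both. Only transcripts with a listed region could be placed, so some sequence counted as free holds other genes. The free sequence downstream came to 11.5 Mb at 0 to 2 kb, 15.04 Mb at 2 to 5 kb and 21.5 Mb at 5 to 10 kb. On this scale Pemt-/- had 68.9 regions per Mb (64.2 to 73.9), 75.6 (71.3 to 80.1) and 86.2 (82.3 to 90.2) with increasing distance. Pemt+/+ had 96.0 (90.5 to 102), 104 (98.6 to 109) and 116 (111 to 120). Over these flanks the density thus rose with distance from the 3′ end in both mice, and the bins at 0 to 2 kb and 5 to 10 kb had separate intervals. The upstream side showed a like rise, with 63.0 regions per Mb nearest and 83.3 farthest from the gene in Pemt-/-, and 87.5 and 115 in Pemt+/+.

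Within the flanks that could be placed, the first kb differed between the sides of the genes. In Pemt-/- the first kb beyond the 3′ end had 75.1 regions per Mb (68.3 to 82.4), and the first kb before the 5′ end had 57.4 (51.3 to 64.0). In Pemt+/+ the densities were 99.4 (91.5 to 108) downstream and 74.3 (67.3 to 81.7) upstream. The first kb downstream was therefore 1.31 times as dense as the first kb upstream in Pemt-/- (1.13 to 1.51) and 1.34 times in Pemt+/+ (1.18 to 1.52). Relative to the following 9 kb on the same side, the first kb had a density of 0.726 upstream in Pemt-/- (0.646 to 0.814) and 0.682 in Pemt+/+ (0.616 to 0.754). Downstream this ratio was 0.948 (0.857 to 1.05) and 0.917 (0.840 to 0.999). Set against the following 9 kb in these flanks, the drop next to the transcript that marked the 5′ side was thus small or absent on the 3′ side. Set against 5 to 10 kb, the first kb was less dense on both sides. Downstream it had 75.1 against 86.2 regions per Mb in Pemt-/- and 99.4 against 116 in Pemt+/+. Upstream it had 57.4 against 83.3 and 74.3 against 115. Pemt-/- also had more regions in the first than in the second kb downstream (ratio 1.21, 1.05 to 1.39), while in Pemt+/+ this ratio was 1.08 (0.953 to 1.21) and its interval included 1, though with the upper 50% of the list by score it was 1.30 (1.08 to 1.57).

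**Figure D1:**
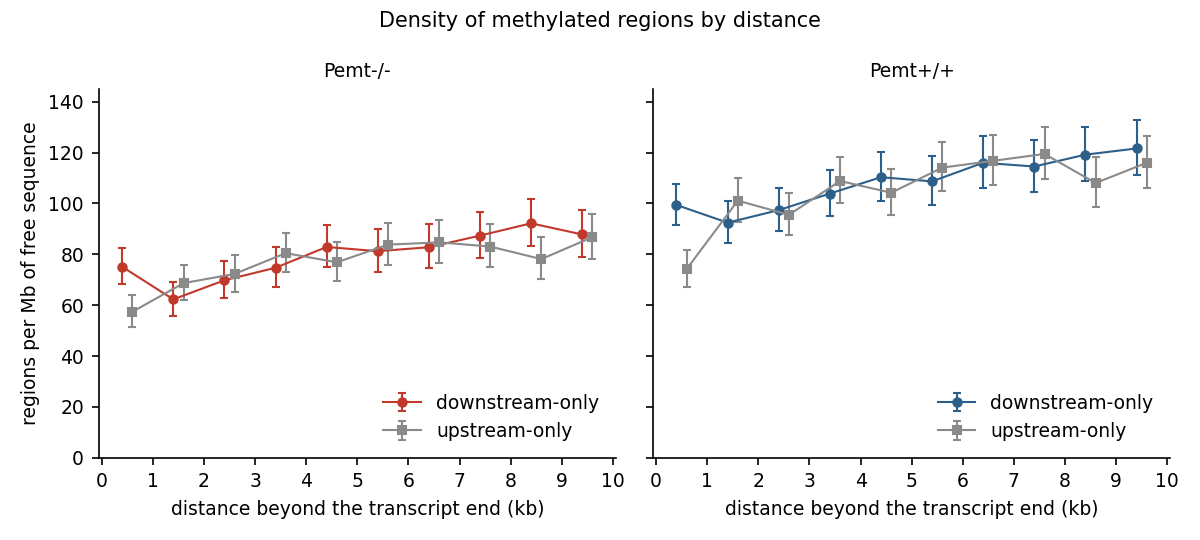
Regions per Mb of free sequence (vertical axis) in steps of 1 kb from the transcript end (horizontal axis), for downstream-only regions (coloured circles) and upstream-only regions (grey squares) of each mouse, with 95% intervals of counting error. The sides differ in the first kb, 75.1 against 57.4 in Pemt-/- and 99.4 against 74.3 in Pemt+/+, and run together beyond it. Flanks without any listed region are left out.

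The downstream-only regions held few tags. The median was 13 tags in Pemt-/- (quartiles 10 and 18, range 8 to 177) and 17 in Pemt+/+ (quartiles 12 and 25, range 9 to 295). Across the bins the median was 14, 13 and 13 tags in Pemt-/- and 17 in each bin in Pemt+/+. Median widths were 417 bp and 419 bp. The median tag number therefore differed between bins by at most 1. The fold enrichment over background, as deposited, had a median of 16.4 in Pemt-/- (16.4 to 16.6) and 16.06 in Pemt+/+ (16.06 to 16.08). Upstream-only regions had higher medians, 18.2 (17.8 to 18.5) and 17.7 (17.5 to 17.7), while regions inside transcripts had 16.4 and 16.1. By median fold enrichment the downstream-only regions were thus closer to regions inside transcripts than to upstream-only regions. Regions without a transcript within 10 kb had medians of 17.9 in Pemt-/- and 17.6 in Pemt+/+, and all regions 16.9 and 16.5. Within the downstream-only regions of Pemt+/+ the median rose with distance, from 14.98 at 0 to 2 kb (14.4 to 15.6) to 16.1 (16.1 to 16.7) and 16.5 (16.1 to 17.2). In Pemt-/- the medians were 16.4, 16.4 and 16.6.

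Most downstream-only regions of Pemt-/- had a counterpart in Pemt+/+. An overlap of 1 bp or more was found for 82.9% (81.7 to 84.1%), with 82.8%, 83.5% and 82.7% over the 3 bins. The other 659 overlapped none, against a background of 16.7% over all Pemt-/- regions. In Pemt+/+ 60.2% had a Pemt-/- counterpart (58.9 to 61.5%), with 58.5%, 60.9% and 60.5% over the bins, and 2117 overlapped none, against 38.4% of all Pemt+/+ regions. With lists of equal size, which must give nearly equal shares, they were 71.0% and 70.1%. The distance from the 3′ end did not move the overlap beyond its interval. The number of tags did. Among Pemt-/- regions with up to 10 tags 64.3% overlapped (61.5 to 67.0%), and this share was 84.3% at 11 to 15 tags, 95.8% at 16 to 25 and 99.5% at 26 or more. In Pemt+/+ the same tag classes gave 25.99%, 41.9%, 68.4% and 92.4%. All regions of the lists followed the same course, with 64.5% in the lowest and 99.3% in the highest class of Pemt-/-, and 26.1% and 93.0% in those of Pemt+/+.

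**Figure D2:**
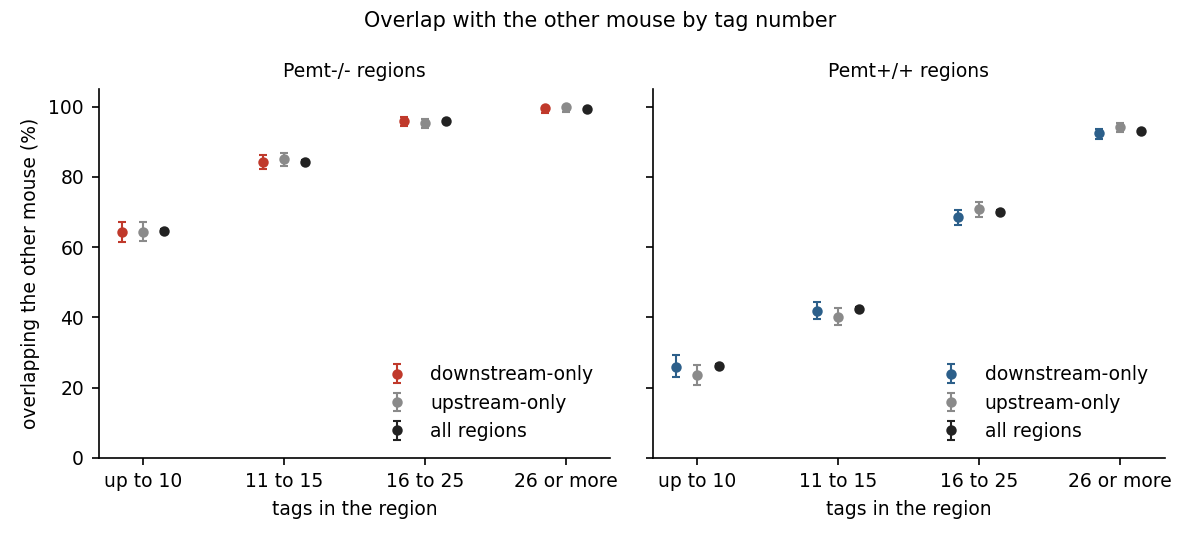
Percent of regions that overlap a region of the other mouse (vertical axis) by tag number (horizontal axis), for downstream-only, upstream-only and all regions of each mouse, with 95% Wilson intervals. The classes lie together at each tag number, from 64.3% to 99.5% for downstream-only Pemt-/- regions and from 25.99% to 92.4% for those of Pemt+/+.

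Regions counted as shared overlap by definition, so their agreement in class, nearest gene and distance largely follows from the overlap. The overlapped region was itself downstream-only for 98.9% of the shared Pemt-/- regions and 99.1% of the shared Pemt+/+ regions, and none was only upstream or inside a transcript. There were 3112 pairs in which a region of one mouse overlapped exactly 1 of the other and the reverse, with both partners downstream-only. Both partners had the same nearest gene in 3108 pairs (99.9%) and lay in the same distance bin in 3071 (98.7%). Their distances to the 3′ end differed by a median of 38 bp and their summits by 17 bp. Few unshared regions lay close to one of the other mouse. Of the 659 unshared Pemt-/- regions 113 lay within 1 kb of a Pemt+/+ region (17.1%, 14.5 to 20.2%), and of the 2117 unshared Pemt+/+ regions 250 lay within 1 kb of a Pemt-/- region (11.8%, 10.5 to 13.3%). Over all unshared regions these shares were 16.9% and 12.7%, near those of the downstream-only ones.

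In the 3112 pairs the Pemt-/- region held fewer tags than its partner, by a median ratio of 0.688 (0.677 to 0.700; quartiles 0.550 and 0.857). Over all 79393 pairs of the lists the ratio was 0.682 (0.680 to 0.684), so most of this distance from 1 is common to both libraries as a whole, whose read totals are not in the lists. By bin the ratio was 0.704 at 0 to 2 kb (634 pairs, 0.684 to 0.730), 0.706 at 2 to 5 kb (951 pairs, 0.680 to 0.721) and 0.667 at 5 to 10 kb (1527 pairs, 0.667 to 0.688). Upstream-only pairs gave 0.706, 0.692 and 0.667 in the same bins, so the farthest bin had the lowest ratio on both sides of the genes. Pairs inside transcripts had a ratio of 0.690 and pairs without a transcript 0.668. A ratio of at least 2 times the median of all pairs occurred in 52 downstream-only pairs (1.67%), against 2.12% of all pairs. A ratio of at most 0.5 times that median occurred in 61 (1.96%), against 1.93% of all pairs. These shares were near the background. The Pemt-/- region held more tags than its partner in 329 pairs (10.6%), against 10.4% of all pairs.

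**Figure D3:**
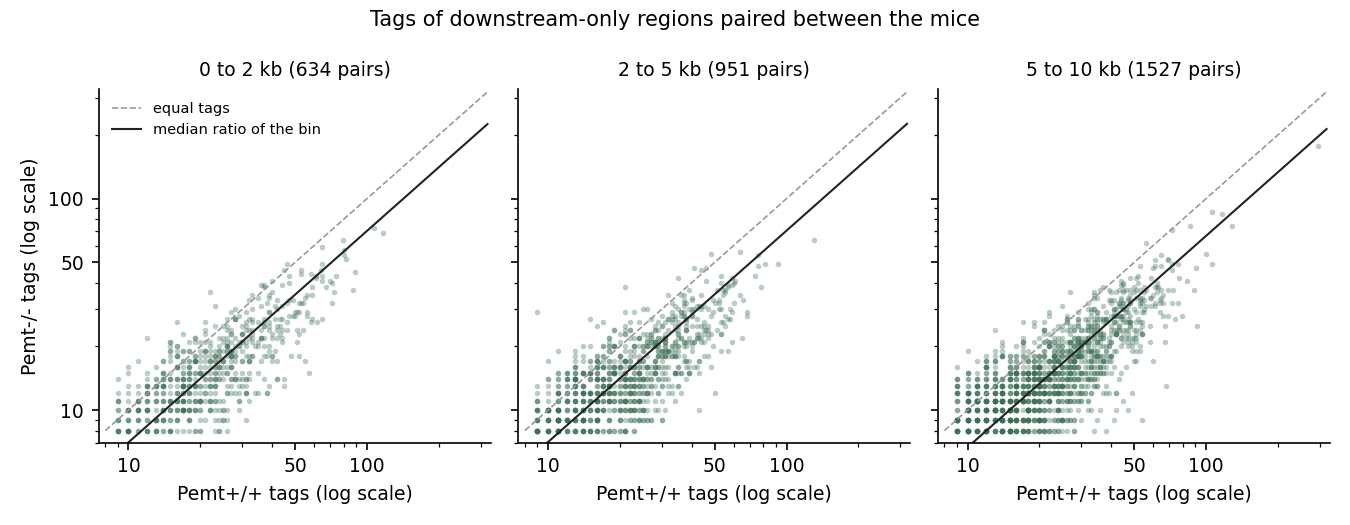
Tags in the Pemt-/- region (vertical axis) against tags in its Pemt+/+ partner (horizontal axis), both on log scales, for the 3112 pairs by distance bin of the Pemt-/- region; each point is 1 pair, the broken line marks equal tags and the solid line the median ratio of the bin. The points lie below the line of equal tags in most pairs, around ratios of 0.704, 0.706 and 0.667.

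The pairs with the most summed tags in each bin were the following, and both partners of each are downstream-only by selection. Within 2 kb they lay beyond Zfp607, a zinc finger protein gene, Mfsd1, which encodes a lysosomal transporter, and Wdr37, which encodes a WD repeat protein. The region beyond Zfp607 (chromosome 7, 28667662 to 28669280 in Pemt-/-) held 69 tags in Pemt-/- and 117 in Pemt+/+, at 1818 and 1828 bp from the 3′ end. That beyond Mfsd1 (chromosome 3, 67409149 to 67409724) held 73 and 107 tags at 996 and 1128 bp. That beyond Wdr37 (chromosome 13, 8801123 to 8801776) held 64 and 79 tags at 437 and 435 bp, with fold enrichments of 41.7 and 42.1. All 3 had more tags in Pemt+/+, with ratios from 0.590 to 0.810.

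At 2 to 5 kb the leading pairs lay beyond 1110049B09Rik, Itgax, which encodes CD11c of dendritic cells and macrophages, and Pnliprp2, a pancreatic lipase-related protein gene. The region beyond 1110049B09Rik (chromosome 12, 33714396 to 33715124) held 64 and 130 tags, a ratio of 0.492. Those beyond Itgax (chromosome 7, 135296932 to 135298344) and Pnliprp2 (chromosome 19, 58855094 to 58856075) held 49 tags each in Pemt-/- and 92 and 81 in Pemt+/+. The Pnliprp2 region was also downstream of a second gene.

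At 5 to 10 kb the leading pair lay beyond Mid1, a ubiquitin ligase gene at the end of the X chromosome whose 3′ part belongs to the pseudoautosomal region of laboratory mice. This region (chromosome X, 166433822 to 166436621) held 177 and 295 tags, the most of all downstream-only regions in each mouse. It was 2800 bp wide and its fold enrichment was only 7.61 and 7.86. The region beyond Ins1, an insulin gene of pancreatic beta cells, was the opposite, narrow and strongly enriched. It spanned 498 bp in Pemt-/- (chromosome 19, 52349583 to 52350080), with 85 and 117 tags and fold enrichments of 52.0 and 49.7. Beyond Pfdn4, which encodes a prefoldin subunit, a region of 1601 bp (chromosome 2, 170353385 to 170354985) held 74 and 129 tags. The number of tags thus followed width in some regions and enrichment in others.

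The unshared regions with the most tags were the following. In Pemt-/- they lay beyond Tmem154 (29 tags, 524 bp from a Pemt+/+ region of 26 tags) and Mbd2, which encodes a methyl-CpG-binding protein (20 tags, 1028 bp from a region of 29 tags), within 2 kb. Beyond Gins2, a replicative helicase gene, a region of 21 tags lay 563 bp from a Pemt+/+ region of 44 tags. Beyond Cdh13, which encodes T-cadherin, a region of 19 tags lay 2120 bp from one of 63 tags. In the farthest bin, a region of 32 tags beyond Pfdn4 lay 202 bp from the Pemt+/+ region of 129 tags described above, and one of 25 tags beyond Bola3, an iron-sulphur cluster gene, lay 497 bp from a region of 48 tags. Every one of these 6 neighbours was downstream-only too.

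In Pemt+/+ the corresponding regions held more tags. Beyond Syt16, a synaptotagmin gene, a region at 290 bp held 63 tags and the nearest Pemt-/- region was 2784 bp away with 17 tags. Regions beyond Gpr158 and Boc, a Hedgehog co-receptor gene, held 43 tags each, at 2155 and 800 bp from Pemt-/- regions of 18 and 35 tags. Beyond Pdcd2l 52 tags lay 876 bp from a region of 37 tags. In the farthest bin a region beyond Abpa, an androgen-binding protein gene, held 60 tags and one beyond Nsf, the gene of a vesicle fusion ATPase, held 52, with Pemt-/- regions of 13 and 12 tags at 2678 and 837 bp. The Nsf region was also in the shorter Pemt+/+ list, with a false discovery rate (FDR) of 31.2%.

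Each mouse also has a shorter list, whose regions were read as enriched in that mouse over the other, although the labels do not say so. It held 77 of the downstream-only Pemt-/- regions (1.99%), against a background of 2.13% of all Pemt-/- regions, and 270 of those of Pemt+/+ (5.07%), against 4.59%. By distance the shares were 2.38%, 2.32% and 1.63% in Pemt-/- and 4.10%, 5.19% and 5.43% in Pemt+/+. The shares ran in opposite directions with distance in the 2 mice, and these differences rest on 19, 27 and 31 regions and on 46, 83 and 141 regions. Within each mouse the intervals of the nearest and farthest bins overlapped. They were 1.53 to 3.68% and 1.15 to 2.31% in Pemt-/-, and 3.08 to 5.42% and 4.62 to 6.37% in Pemt+/+. Upstream-only regions had shares of 2.96%, 2.17% and 2.71% in Pemt-/- and of 4.09%, 4.38% and 4.93% in Pemt+/+. Among the downstream-only regions in the shorter Pemt-/- list, the highest scores belonged to small regions beyond Cyb5r2, Myo16 and Glce. Cyb5r2 is a cytochrome b5 reductase gene, Myo16 an unconventional myosin gene, and Glce encodes an epimerase of heparan sulphate synthesis. The 3 regions held 8, 10 and 9 tags and each had an FDR of 100%. Among those in the shorter Pemt+/+ list, the highest scores lay beyond Vtcn1 (16 tags, FDR 25%), Bbx (18 tags, FDR 21.1%) and Ankrd34a (13 tags, FDR 23.5%). Vtcn1 encodes the immune checkpoint ligand B7-H4, and Bbx is an HMG box gene. None of these 6 overlapped a region of the other mouse. They were picked by score from lists read as enriched over that mouse, and they held few tags. Of all downstream-only Pemt-/- regions with up to 10 tags, 64.3% overlapped. In Pemt+/+ this share was 41.9% at 11 to 15 tags and 68.4% at 16 to 25 tags. Whether these 6 differ from other regions with as many tags was not tested.

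Most downstream-only regions stood alone beyond their gene. The nearest genes numbered 3185 in Pemt-/- and 3978 in Pemt+/+, and 81.2% and 71.3% of them had 1 such region. The nearest gene was protein-coding for 97.5% and 97.8% of the regions. Of the nearest genes 66.2% and 72.9% had a region inside as well, where 71.2% and 73.7% of all listed genes did. The distance to the next region of the same mouse, of any class, had a median of 6.05 kb in Pemt-/- and 4.203 kb in Pemt+/+, which was shorter than around upstream-only regions (7.17 and 5.32 kb). It lengthened with distance from the 3′ end, with medians of 5.21, 5.70 and 6.60 kb over the bins of Pemt-/- and 3.41, 4.15 and 4.67 kb over those of Pemt+/+. Downstream-only regions near the 3′ end thus had closer neighbours.

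Some downstream-only regions lay beyond the 3′ ends of several genes. This held for 335 in Pemt-/- (8.68%) and 475 in Pemt+/+ (8.93%), and the share fell with distance, from 18.0% over 10.3% to 3.74% and from 18.4% over 10.5% to 3.85%. In 287 (85.7%) and 402 (84.6%) of them the genes were on opposite strands, so the region lay between 2 convergent 3′ ends. Their median tags, 13 and 17, were those of regions beyond 1 gene, and 83.6% and 59.4% of them overlapped the other mouse. A 3′ end on both sides went with no difference in tags or overlap beyond the intervals.

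Up to 6 downstream-only regions had the same nearest gene. Cyp3a41a, a cytochrome P450 gene, had 6 in each mouse, with 13 to 34 tags in Pemt-/- and 10 to 56 in Pemt+/+, but they lie at 2 places on chromosome 5, around 146311762 and 146504110, beside near-identical gene copies, so the assignment of these reads is uncertain. Daf2, which encodes a complement regulator, had 5 in each mouse, all shared. From 1842 to 8186 bp beyond its 3′ end the 5 Pemt-/- regions held 19, 24, 22, 19 and 21 tags, and the Pemt+/+ regions, from 2034 to 7957 bp, held 30, 21, 47, 38 and 40. In 4 of the 5 places the Pemt+/+ region held more tags, and at 5486 and 5491 bp Pemt-/- held 24 and Pemt+/+ 21. Gpc6, a glypican gene, had 4 and 5 regions, Ckap2, a mitotic spindle gene, and Cwc22, a splicing factor gene, 3 and 4 each. In these 3 genes every Pemt-/- region was shared and the additional Pemt+/+ region was not.

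**Figure D4:**
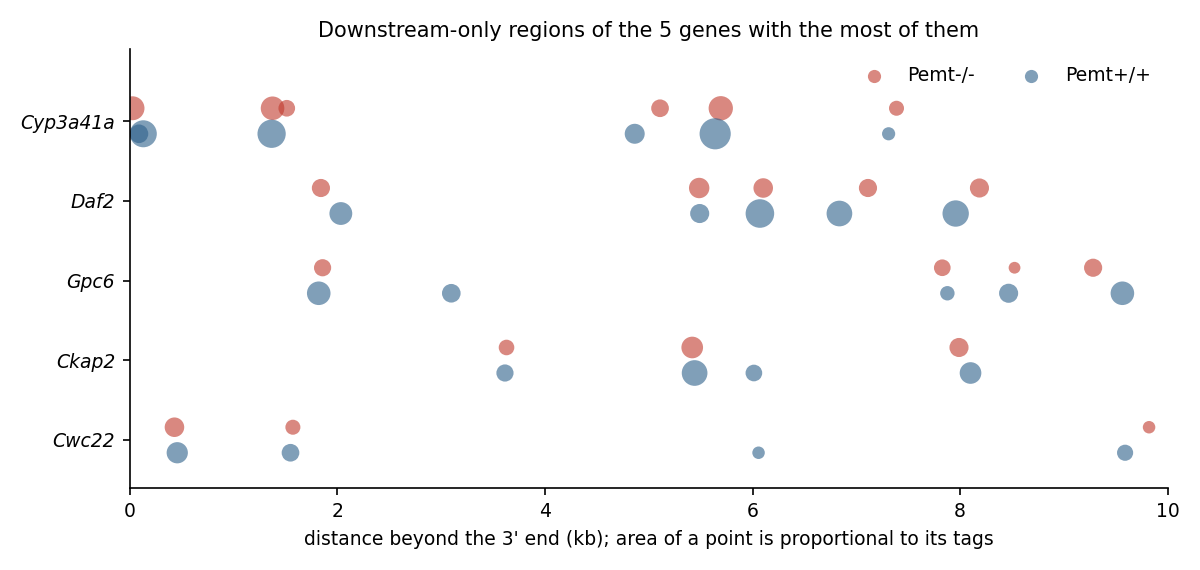
Distance beyond the 3′ end in kb (horizontal axis) of the downstream-only regions whose nearest gene is Cyp3a41a, Daf2, Gpc6, Ckap2 or Cwc22, for Pemt-/- (red) and Pemt+/+ (blue); the area of a point is proportional to the tags of its region. Most points come in pairs at the same distance, and the additional Pemt+/+ points of Gpc6, Ckap2 and Cwc22 have no Pemt-/- point beside them.

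Genes of 8 lists that fit the liver and the study were looked up, from plasma proteins to imprinted genes. Over all 14480 genes in the region lists, 23.9% had a downstream-only region in Pemt-/- and 30.0% in Pemt+/+. Of the 23 listed hepatic transcription factor genes 10 had one in each mouse, 43.5% (25.6 to 63.2%). This was the list with the highest share, and its interval lay above the background in Pemt-/- and included it in Pemt+/+. The other lists had shares of 19.2% to 28.1% in Pemt-/- and 23.1% to 37.5% in Pemt+/+, and all their intervals included the background. The lists had 58 pairs of downstream-only regions by nearest gene, with a median tag ratio of 0.708 and a range of 0.240 to 1.42. Pemt-/- held more tags in 6 of them, against 10.4% of all pairs.

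**Figure D5:**
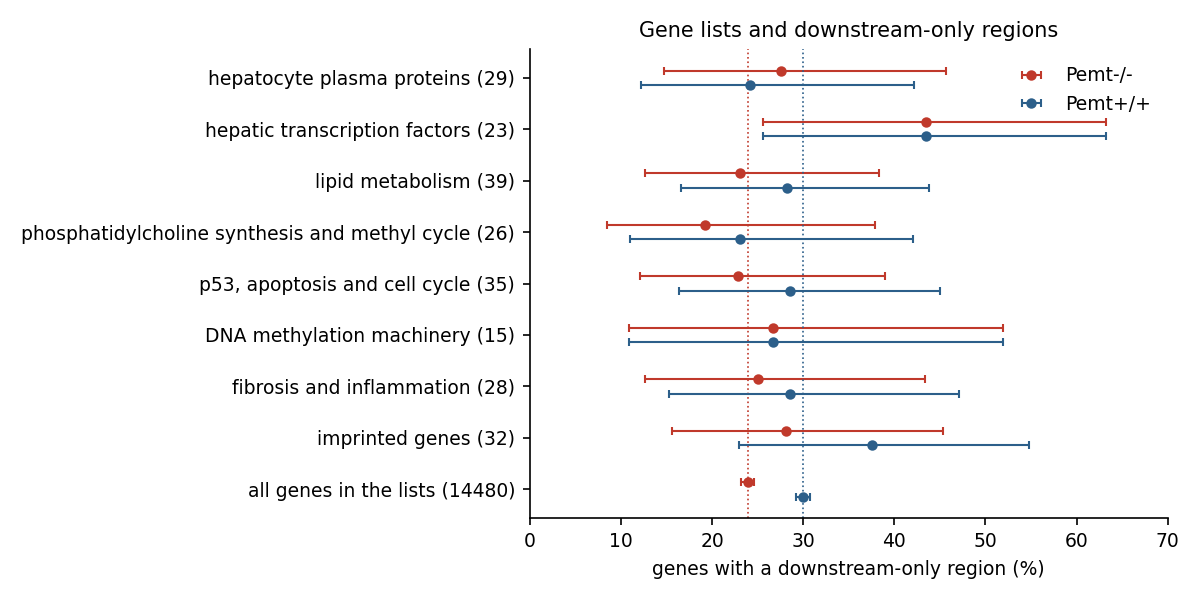
Percent of the genes of each list with at least 1 downstream-only region (horizontal axis) in Pemt-/- (red) and Pemt+/+ (blue), with 95% Wilson intervals; the number of genes present in the region lists is in parentheses and the dotted lines mark all genes, at 23.9% and 30.0%. Hepatic transcription factors have the highest share, 43.5% in both mice.

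Hepatic transcription factors hold hepatocytes in their differentiated state, and several had a region in the same place in both mice. Beyond Hnf4a, the gene of HNF4α, the Pemt-/- region (chromosome 2, 163403013 to 163403599) held 14 tags at 4370 bp and the Pemt+/+ region 13 tags at 4465 bp, with fold enrichments of 26.7 and 20.9. The Pemt-/- region was 587 bp wide and the Pemt+/+ region 251 bp, so the tags were counted over unequal lengths. The deposited score was lower in Pemt-/-, 93.8 against 146. Over all pairs of the lists the median tag ratio was 0.682. Beyond Onecut1, the gene of HNF6, a region at 6455 and 6365 bp held 42 and 48 tags (chromosome 9, 74743909 to 74744460). Prox1, a gene of hepatoblast and lymphatic identity, had a shared region of 21 and 39 tags about 2458 bp out, and a second one of 19 tags in Pemt+/+ alone. Cebpa (13 and 21 tags), Foxa1 (18 and 20), Gata6 (14 and 13) and Tbx3 (15 and 35) had 1 shared region each. Cebpb had a region of 9 tags in Pemt-/- alone and Pparg one of 12 tags in Pemt+/+ alone.

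The pair with the lowest ratio of all lists lay beyond Nr2f2, the gene of the nuclear receptor COUP-TFII. On chromosome 7, 3 stretches were listed beyond its 3′ end. At 1897 bp Pemt-/- had 13 tags and Pemt+/+ 26. At 2945 bp Pemt-/- had 12 tags (77493333 to 77493890) and Pemt+/+ 50, a ratio of 0.240, or 0.352 of the median of all pairs. At 4037 bp Pemt+/+ had 23 tags and Pemt-/- had no region. The last 2 Pemt+/+ regions were also in the shorter list of that mouse. The pair at 1897 bp had 0.733 of the median ratio of all pairs. Both pairs thus had more tags in Pemt+/+, as most pairs of the lists did, and each is 1 mouse against 1. At 4037 bp no comparison of tags is possible, since the tags of an unlisted stretch are not known.

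Fbxo31, which encodes an F-box protein that binds cyclin D1, had no downstream-only region in either mouse. Regions were listed beyond its 3′ end on chromosome 8, but they also touched or preceded 1700018B08Rik. In Pemt-/- these were a region of 11 tags 9195 bp from Fbxo31 and 396 bp upstream of 1700018B08Rik, and another of 11 tags at 9713 bp that overlapped the 5′ end of 1700018B08Rik. In Pemt+/+ 10 tags lay at 9827 bp, over the same 5′ end. A region with more tags overlapped the 3′ end of Fbxo31 itself, with 22 tags in Pemt-/- and 37 in Pemt+/+, and does not count as downstream-only.

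Plasma protein genes, which hepatocytes transcribe most, had a downstream-only region in 8 of 29 cases in Pemt-/- and 7 of 29 in Pemt+/+. The region beyond Ambp, which encodes α1-microglobulin, held 38 and 55 tags at 9388 and 9328 bp. Beyond Igf1, the gene of insulin-like growth factor 1, 21 and 31 tags lay at 1428 and 1424 bp, with fold enrichments of 28.8 and 33.9. Beyond Ttr, the gene of the thyroxine carrier transthyretin, 14 and 32 tags lay at 1308 and 1314 bp. Cp, the gene of the copper carrier ceruloplasmin, had 12 and 32 tags, and the Pemt+/+ region was in the shorter list. The 7 pairs of this list ran from 0.375 to 0.938 in ratio. None had more tags in Pemt-/-, which held for 10.4% of all pairs.

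Of the 39 lipid metabolism genes, 9 had a downstream-only region in Pemt-/- and 11 in Pemt+/+. Abcg5, which encodes part of the hepatic sterol exporter, had a strongly enriched one at 971 and 964 bp (chromosome 17, 85056153 to 85056602) with 39 and 44 tags. It was also downstream of a second gene. Cidea, a lipid droplet gene, had a shared pair of regions, with 17 and 19 tags close to the 3′ end and 16 and 24 tags farther out. Elovl6, a fatty acid elongase gene, had 16 and 37 tags at 8974 and 8933 bp, and a further region of 10 tags in Pemt+/+ alone. Cidec, another lipid droplet gene, Insig2, a brake on sterol synthesis, and Scarb1, the HDL receptor gene, had more tags in Pemt-/- in their shared regions, 13 against 10, 18 against 16 and 14 against 10. These were 3 of the 9 pairs of this list, where 10.4% of all pairs had more tags in Pemt-/-. Whether the list differs from all pairs was not tested. Dgat2, a triglyceride synthesis gene, had a region of 9 tags and Scd2, a fatty acid desaturase gene, one of 16 tags in Pemt+/+ alone.

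The list of phosphatidylcholine synthesis and methyl cycle genes, to which Pemt belongs, had a downstream-only region at 5 of 26 genes in Pemt-/- and 6 of 26 in Pemt+/+. Dmgdh, which encodes dimethylglycine dehydrogenase of choline breakdown, had one at 104 and 107 bp (chromosome 13, 94522882 to 94523363) with 11 and 29 tags, a ratio of 0.379, and the Pemt+/+ region was in the shorter list. Pisd, the gene of the mitochondrial phosphatidylserine decarboxylase, had 10 and 25 tags. Cbs, the gene of cystathionine β-synthase, had 17 and 21, and Cth, the gene of cystathionine γ-lyase, 17 and 12. Bhmt2, a homocysteine methyltransferase gene, had 32 tags at 43 bp in Pemt+/+, and the Pemt-/- region that overlapped it was not downstream-only. Cth was the 1 of the 5 pairs with more tags in Pemt-/-, where 10.4% of all pairs had more. Relative to the median ratio of all pairs, the Cbs pair stood at 1.19, and those of Dmgdh and Pisd at 0.556 and 0.587.

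DNA methylation genes had a downstream-only region at 4 of 15 genes in each mouse. Dnmt3a and Dnmt3b, the de novo methyltransferase genes, had 17 and 23 tags at 8706 and 8704 bp, and 14 and 19 tags at 6921 and 7037 bp. Mbd2 had a shared region of 21 and 29 tags at 303 and 286 bp and 2 further regions in Pemt-/- alone, with 20 and 10 tags. The 3 pairs of this list had ratios from 0.724 to 0.739. Uhrf2 had a region in Pemt-/- alone (10 tags) and Hells one in Pemt+/+ alone (11 tags).

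Of the 35 genes of the p53, apoptosis and cell cycle list 8 had a downstream-only region in Pemt-/- and 10 in Pemt+/+. Cdc2a, the gene of CDK1, had shared regions of 19 and 32 and of 16 and 20 tags, and 1 further region in each mouse that the other lacked. The further Pemt-/- region held 19 tags and was in the shorter Pemt-/- list. That of Pemt+/+ held 23 tags and was not in the shorter list of its mouse. Cdkn1b, the gene of the CDK inhibitor p27, had 28 and 43 tags. Cdkn1a, the gene of p21, had a region of 20 tags at 225 bp in Pemt+/+ alone. Mdm4, a p53 inhibitor gene, had regions of 8 and 14 tags in Pemt-/- alone, and Apaf1, the apoptosome gene, regions of 11 and 19 tags in Pemt+/+ alone.

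Fibrosis and inflammation genes had a downstream-only region at 7 of 28 genes in Pemt-/- and 8 of 28 in Pemt+/+. Col4a1, a basement membrane collagen gene, had 2 pairs, with 10 and 19 tags and with 11 and 28. Ctgf, the gene of connective tissue growth factor, had 22 and 30 tags at 6080 and 6099 bp. Smad7, the gene of a TGF-β pathway inhibitor, had 15 and 16 and, farther out, 8 and 9 tags, and a region of 22 tags between them in Pemt+/+ alone. Spp1, the gene of osteopontin, had 32 tags in Pemt+/+ alone, in the shorter list, and Il6 had 8 tags in Pemt-/- alone. The 7 pairs had ratios from 0.393 to 0.938.

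Imprinted genes, which are expressed from the allele of one parent and carry methylation marks of parental origin, had a downstream-only region at 9 of 32 genes in Pemt-/- and 12 of 32 in Pemt+/+. Usp29 had 34 and 59 tags at 9610 and 9634 bp (chromosome 7, 6929541 to 6930389). Ddc, the gene of DOPA decarboxylase, had pairs of 18 and 35 and of 21 and 23 tags and a region of 14 tags in Pemt-/- alone. Sgce, the gene of ε-sarcoglycan, had 16 tags in each mouse in one pair and 11 and 22 in the other. Rtl1 and Dlk1, imprinted genes of chromosome 12, had 15 and 34 and 9 and 23 tags. Gnas, Plagl1 and Slc22a3 had regions in Pemt+/+ alone, with 10 to 14 tags. No pair of this list had more tags in Pemt-/-, and 2 of its 10 pairs were equal, where 10.4% of all pairs had more.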

How the data were processed

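Liver DNA of 1 Pemt-/- and 1 Pemt+/+ mouse was analysed. The labels speak of bisulphite conversion before the capture, the study's Methods do not. The submitters' processing notes name CASAVA version 1.8.2, Bowtie and mm9, and the region names are those of MACS. The caller's version, control and handling of duplicate reads are not given in the sources used here. The deposited tags are raw counts of reads per region, the deposited fold enrichment is a ratio over background as the authors' caller gave it, the deposited score is 10 times the −log10 p-value, at least 50, and the deposited FDR is a percent. The lists of both mice differ in length and tags, and library totals are not in them.

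Each region was used once. Intervals are Wilson for shares, exact Poisson for densities, and from order statistics for medians, and treat regions as independent. Overlaps used bedtools version 2.31.1 (1 bp minimum); other steps used Python version 3.11.15, pandas version 2.3.3, numpy version 2.4.6, scipy version 1.17.1 and matplotlib version 3.10.9, and were tested on simulated data. Genes were named by the nearest 3′ end: Fbxo31 and Hnf4a, the 3 pairs with the most tags per bin, the 2 unshared regions with the most tags per bin and mouse, the 5 genes with the most regions, and 3 genes per gene list with the most paired tags. The rule also named, in each shorter list, the 3 downstream-only regions with the highest scores. Some genes that this rule names are not reported here. Other genes named were chosen after their values were seen. The regions and gene lists were chosen with earlier results of these data known. Alternatives kept the upper 50% by score, lists of equal size, autosomes, regions beyond 1 gene, the largest distance, or overlaps of at least 50%.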

Additional observations from a re-analysis of the deposited data

How the results depend on the processing

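No paired analysis was possible because only 1 mouse stands for each genotype. Of the values set against an alternative 203 stayed within their interval, or within 1.5 times for numbers of regions and genes, and 91 moved. None moved with autosomes only or when only the Pemt-/- partner of a pair had to be downstream-only. With the upper 50% of each list by score, the downstream-only regions numbered 1872 in Pemt-/- and 2532 in Pemt+/+ (3.86% of its regions, 19.4% of them at 0 to 2 kb and 50.6% at 5 to 10 kb). The nearest bin then held a larger share in Pemt-/- (21.3%) than in Pemt+/+, the reverse of the order with all regions. The densities over the 3 bins were then 34.0, 36.6 and 42.2 regions per Mb in Pemt-/- and 42.4, 50.1 and 58.0 in Pemt+/+. Median tags were 18 and 25, median fold enrichments 21.4 and 22.5 (higher in Pemt+/+, where with all regions they were higher in Pemt-/-), median widths 434 and 448 bp, the genes of the lists with such a region 39 and 40, and the share in the shorter Pemt+/+ list was 5.92%. Under the same limit 77.8% of the Pemt-/- regions were shared (74.1%, 78.4% and 79.1% by bin) and 57.3% of those of Pemt+/+ (58.1% and 56.5% in the farther bins). In Pemt-/- the first kb had 0.645 of the density of the next 9 kb upstream and 1.005 downstream, where it was below 1 with all regions, the ratio of the first to the second kb downstream in Pemt+/+ was 1.30 with an interval of 1.08 to 1.57, and the tag ratio of pairs was 0.667 (0.672 and 0.652 in the farther bins). The comparisons of the first kb, as reported and under each alternative, were chosen after seeing the data. With lists of equal size the shared parts came close to each other, 71.0% in Pemt-/- (70.5%, 71.4% and 71.0%) and 70.1% in Pemt+/+ (70.3%, 70.1% and 70.1%). Because nearly all overlaps join 1 region to 1, lists of equal size must give nearly equal shares. The Pemt+/+ densities were then 68.0, 76.7 and 86.2 regions per Mb, close to those of Pemt-/-, its median tags were 20, its median fold enrichment 19.2, above that of Pemt-/-, and its share in the shorter list 5.86%, and the tag ratio was 0.658 (0.680, 0.667 and 0.643). Counting as shared only overlaps of 50% or more of each partner gave 78.6% (78.1%, 78.3% and 78.9%) and 57.0% (55.5%, 57.0% and 57.6%). Regions beyond 1 gene only were at 0 to 2 kb in 18.6% and 18.9% of cases and at 5 to 10 kb in 51.8% and 51.5%, with densities of 56.5 and 67.7 regions per Mb in the nearer bins of Pemt-/- and 78.3, 92.9 and 111.3 over the bins of Pemt+/+. By the largest instead of the smallest distance these shares were 17.4% and 17.5%, and 53.8% and 53.8%, with 28.7% at 2 to 5 kb in Pemt+/+. The low tag numbers limit every single region, and the library totals and the spread between mice are not known.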

Other observations

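Downstream-only regions were not spread evenly over the chromosomes. Chromosomes 7 and 11 had the highest shares of the larger chromosomes in both mice, 5.30% and 5.06% of their Pemt-/- regions and 5.59% and 5.36% of their Pemt+/+ regions. Chromosome 11 was also the one with the largest share of regions within 10 kb of a transcript, 59.5% and 60.6%. On chromosome 1 the downstream-only shares were 3.46% and 3.37%, and on chromosome X they were 3.52% and 3.63%. The upstream-only regions had 5.24% and 5.09% on chromosome 7.

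The downstream-only pairs farthest from the common ratio were picked after their values were seen, among 1266 pairs with at least 40 summed tags. The lowest ratios lay beyond Defb43, a β-defensin gene, with 9 tags in Pemt-/- and 54 in Pemt+/+, Gm6531 (13 and 68 tags), Fam159a (8 and 38) and Pibf1 (10 and 47). All 4 lay at 5 to 10 kb. In all 4 the Pemt+/+ region was the wider, with 813 to 1412 bp against 336 to 568 bp in Pemt-/-, so the tags were counted over unequal lengths. The Pemt+/+ regions beyond Defb43 and Gm6531 were in the shorter list and those beyond Fam159a and Pibf1 were not. The highest ratios lay beyond 1700028K03Rik (38 and 21 tags), Reps1 (27 and 15), Ndufa5, a gene of respiratory complex I (36 and 22), and Tox, a gene of T cell development (26 and 16), and these 4 lay within 5 kb of the 3′ end. Here the Pemt-/- region was the wider each time, with 336 to 1091 bp against 295 to 692 bp. The Ndufa5 region was 336 bp wide in Pemt-/- with a fold enrichment of 51.8, against 35.3 in Pemt+/+. None of these 4 was in the shorter Pemt-/- list. The distances of these few pairs do not stand for all downstream-only pairs. Ratios of at least 2 times the median of all pairs made up 1.42%, 1.68% and 1.77% of pairs over the bins with increasing distance. Ratios of at most 0.5 times that median made up 2.05%, 1.26% and 2.36%.

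The tag ratio beyond a gene and the ratio inside the same gene showed almost no correlation. Over 463 genes with at least 50 tags on each side, summed over both mice, Spearman's rho was -0.014 and Pearson's r of the log2 ratios was -0.019. Genes are not independent replicates, the same 2 libraries gave both ratios, and no test was made. With as few as 50 tags on a side, counting error blurs each ratio, so these values cannot show that the ratios are unrelated. The median ratio of these genes was 0.633 downstream and 0.667 inside.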
